A study of Homo sapiens with 8 samples.

Results

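The ribosomal RNA (rRNA) reads of small RNA libraries from MEC-1 cells and their exosomes were examined through 4 features, RNA28S5, RNA18S5, RNA5-8S5 and RNA5S9. These are the cytosolic rRNA entries with reads, chosen by name from the 2709 non-coding RNA features of each count table. MEC-1 is an established cell line that was started from the B cells of a chronic lymphocytic leukaemia (CLL), and exosomes are small membrane vesicles that cells release into the medium. There were 5 exosome libraries and 3 libraries of the parental cells, and the comparison asked how the rRNA content of exosomes differed from that of the cells of origin.

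Both groups came from the same line, grown in bioreactors with 10% fetal calf serum, and no treatment distinguished them. The serum had been cleared of its own exosomes, except in the upper medium compartment. Exosomes were spun out of the culture supernatant at 100000 g, with a step over a 20% Optiprep cushion. RNA was isolated with a kit protocol for molecules under 200 nt, and 30 ng went into an adapter-ligation library with 15 cycles of PCR. The design text says that 3 of the 5 exosome samples have matching cell samples but does not name them. The labels do not say whether replicates were separate cultures. The p-values therefore speak only of the spread among these libraries, and part or all of it may be technical.

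The ribosome is built on 4 rRNAs. The 18S rRNA is the core of the small subunit, where messenger RNA is decoded. The 28S, 5.8S and 5S rRNAs belong to the large subunit, where peptide bonds form, and 5.8S is base-paired to 28S. RNA polymerase I makes 18S, 5.8S and 28S as a single precursor in the nucleolus, from which spacers are removed with the help of small nucleolar RNAs (snoRNAs). RNA polymerase III makes 5S from a separate gene cluster. Intact 18S and 28S are far longer than the size class isolated here, so their reads in small RNA libraries are those of short stretches, and the count tables hold no positions of reads within a feature.

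In the GRCh37 coordinates of the files, the precursor-derived rRNAs lie in order on the plus strand of the unplaced scaffold GL000220.1. RNA18S5 spans 109078 to 110946 (1869 nt), RNA5-8S5 112025 to 112177 (153 nt) and RNA28S5 113348 to 118417 (5070 nt). The gap between the 18S and 5.8S entries is 1078 nt long and that between the 5.8S and 28S entries 1170 nt. RNA5-8S5 has a second block of the same length on this scaffold, at 155997 to 156149, so its counted length is 306 nt. GENCODE release 29 places RNA5-8SN2 and RNA5-8SN4 at exactly these blocks.

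The 5S genes form a cluster on chromosome 1, from 228746015 to 228781905, with 17 copies of 119 nt on the minus strand spaced 2215 to 2242 nt apart. RNA5S9, at 228763895 to 228764013, was the only one of them with reads, and the other 16 had 0 counts in each of the 8 libraries. The annotated 5.8S sequence of 153 nt is shown, as 5.8S is an abundant rRNA that fits whole within the isolated size class. It is that of the 4 GENCODE transcripts named RNA5-8SN2, which are identical. Whether its ends are those of the mature RNA was not checked. The sequence of the scaffold blocks themselves was not used here.
RNA5-8SN2: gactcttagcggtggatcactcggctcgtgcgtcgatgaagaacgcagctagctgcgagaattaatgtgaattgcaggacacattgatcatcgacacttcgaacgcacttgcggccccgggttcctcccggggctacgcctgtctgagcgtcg

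How reads that match several gene copies were counted is not given in the sources used here. RNA5S9 values are therefore those of a single copy entry and not of total 5S rRNA. The same limit touches RNA5-8S5 with its 2 blocks.

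Exosome libraries held between 23353820 and 32436286 counts and cell libraries between 25675636 and 57323598. The precision of a share set by counting alone was at most 0.0187 percentage points for 28S (half-width of the 95% Wilson interval), far below the spread between libraries. Libraries carried no molecular identifiers, so such intervals cover counting error only. TMM scaling factors, which correct a library's total for its make-up, were 0.524 in exosome 5 and 0.552 in cell 2 and lay between 0.905 and 1.46 in the others. The tables had entries for 3 of 5 miRNAs listed as leukocyte markers (MIR21, MIR181A1 and MIR150), and none of these was at 0 in every library. Their summed level was 5289 to 22053 CPM (counts per 1000000 counts of the library) in exosome and 7159 to 38533 in cell libraries. Nearly all of it was MIR21, at 5035 to 21636 and 7086 to 38068 CPM, so the sum says little about the other 2. MIR150 held 7.36 to 66.5 CPM in exosome and 1.32 to 16.3 CPM in cell libraries. MIR142 and MIR155 had no entry under these names.

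The 4 rRNAs together took more of the exosome than of the cell libraries. Their share of all counts was 49.3%, 46.5%, 45.0%, 37.7% and 72.4% in exosomes 1 to 5 and 30.7%, 26.0% and 24.6% in cells 1 to 3. Every exosome library lay above every cell library, and exosome 5 was the highest. The means were 50.2% ± 13.1 (SD, n = 5) and 27.1% ± 3.20 (SD, n = 3), a difference of 23.1 percentage points. The exact permutation test, two-sided, gave p = 0.0357, and no smaller value is possible with groups of 5 and 3. Adjusted over the 5 measures tested this way, this share and 4 ratios between rRNAs, the exact permutation p was 0.0595, so the difference did not pass. As the unadjusted p was already the smallest possible, that outcome was set by the 4 ratios and not by the size of this difference. When each library's top feature was taken out, which was 28S in the exosomes, 5.8S in cells 1 and 2 and the non-rRNA feature C17orf76-AS1 in cell 3, the difference was 9.54 points and the groups overlapped (exact permutation p = 0.321). With the other features longer than the size class left out of the totals it was 11.2 points, again with overlap (exact permutation p = 0.107). With near-identical features counted once it was 30.1 points, without overlap (exact permutation p = 0.0357). In bulk libraries of equal RNA input, more rRNA and less of the other RNAs cannot be told apart.

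**Figure D1:**
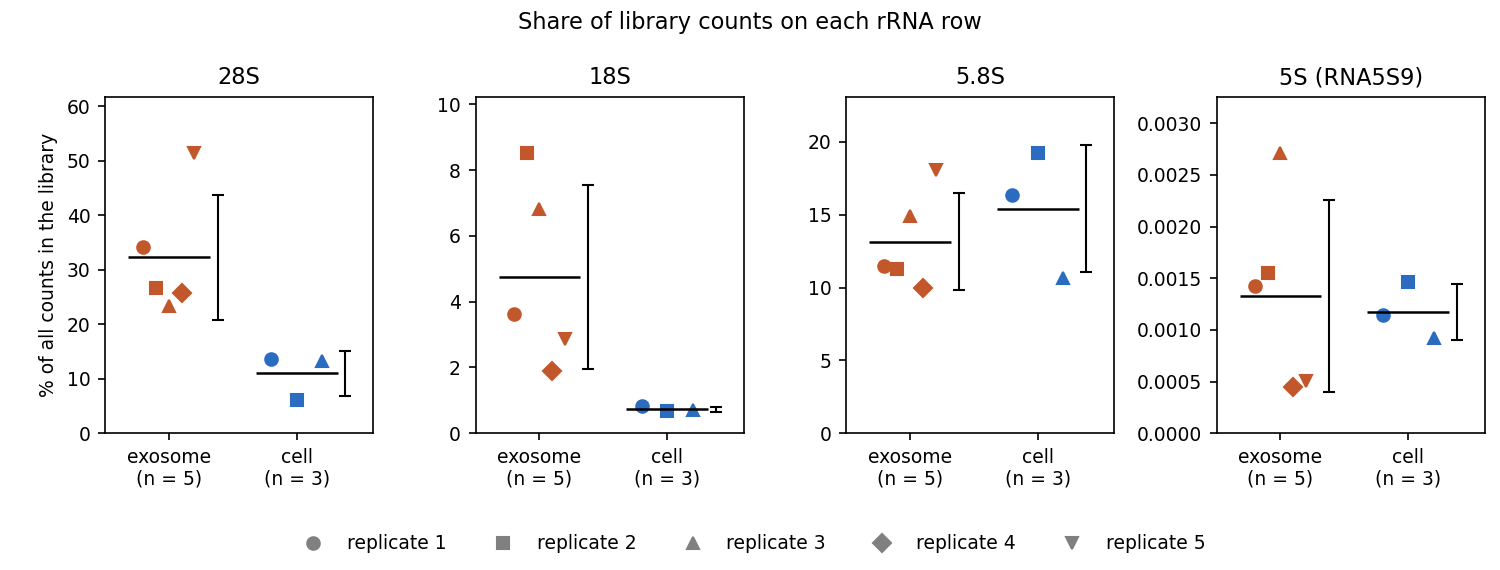
Share of all counts in each library (y axis, percent, with a scale of its own in each panel) on the 28S, 18S, 5.8S and 5S (RNA5S9) entries. Points are libraries, horizontal lines group means and bars the SD; exosome and cell points separate for 28S and 18S and overlap for 5.8S and 5S.

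RNA28S5, the RNA of the large subunit's catalytic core, was the most abundant feature of all 5 exosome libraries. It held 34.1%, 26.7%, 23.3%, 25.8% and 51.4% of counts in exosomes 1 to 5 and 13.5%, 6.12% and 13.2% in cells 1 to 3. The lowest exosome library thus lay above the highest cell library. Its rank by count was 1 in every exosome library and 2, 5 and 2 in cells 1 to 3. The mean shares were 32.3% ± 11.4 (SD, n = 5) and 11.0% ± 4.19 (SD, n = 3).

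RNA18S5, the RNA of the small subunit, was a smaller part of each library and also separated the groups. It held 3.63%, 8.53%, 6.83%, 1.90% and 2.87% of counts in exosomes 1 to 5 and 0.817%, 0.660% and 0.697% in cells 1 to 3. The groups did not overlap. The 3 cell libraries lay close together, with a mean of 0.725% ± 0.0821 (SD, n = 3), whereas the exosome libraries were spread widely around 4.75% ± 2.81 (SD, n = 5). Its rank was 4 to 7 in exosomes and 16 to 22 in cells.

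RNA5-8S5, the short rRNA paired to 28S, was abundant in both groups. It held 11.5%, 11.3%, 14.9%, 10.0% and 18.1% of counts in exosomes 1 to 5 and 16.4%, 19.2% and 10.6% in cells 1 to 3. These ranges overlapped, with means of 13.2% ± 3.31 (SD, n = 5) and 15.4% ± 4.38 (SD, n = 3). It was the most abundant feature of cells 1 and 2.

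RNA5S9, the 5S entry with reads, was rare in every library. It had 384, 501, 880, 104 and 137 counts in exosomes 1 to 5 and 293, 797 and 531 in cells 1 to 3. Scaled to library totals, the groups overlapped at 13.3 ± 9.27 CPM (SD, n = 5) and 11.8 ± 2.70 CPM (SD, n = 3), and exosomes 4 and 5 were the lowest of the 8 libraries. For each RNA5S9 count there were 5497 to 36085 counts of 5.8S in exosomes and 11489 to 14332 in cells.

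In edgeR's quasi-likelihood test over 1178 features, 2 of the 4 rRNAs, 18S and 28S, rose in exosomes, and 5.8S and RNA5S9 did not pass. Of all features tested 42.8% were called, 20.5% as higher and 22.3% as lower, with a median log2 fold change of -0.09. RNA18S5 was 5.31-fold higher (log2 2.41, SE 0.64, adjusted p = 0.00615) and kept its call in each alternative run. For RNA28S5 the log2 fold change was 1.66 (SE 0.64), or 3.16-fold, with an adjusted p of 0.0472. RNA5-8S5 had a log2 fold change of -0.43 (SE 0.60, adjusted p = 0.599) and RNA5S9 one of -0.36 (SE 0.61, adjusted p = 0.668). By TMM-scaled CPM, the groups of 28S and 18S did not overlap. This held for 41.7% of all features, with the exosomes above the cells for 21.6% and below them for 20.1%.

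The 28S call was near the threshold and rested on single libraries. Without exosome 5 its log2 fold change was 0.91 (edgeR adjusted p = 0.161), and it was no longer called either without exosome 1 (1.70, adjusted p = 0.0510), cell 1 (1.41, 0.135), cell 2 (1.44, 0.109) or cell 3 (2.20, 0.0557). Exosome 5 and cell 2, the libraries with the smallest scaling factors, also had the highest and the lowest 28S share. Without both, the log2 fold change was 0.81 (adjusted p = 0.213), and limma-voom gave 1.31 (adjusted p = 0.0670). In all, 9 alternatives ended the call and 10 kept it. Among those that kept it were DESeq2 (1.72, adjusted p = 0.0167) and edgeR with total-count scaling (1.56, adjusted p = 0.0145).

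Higher levels in exosomes were more frequent among long features in general. Of 152 tested features over 200 nt of counted length, which include 28S, 18S and the 5.8S entry with its 2 blocks, 56 were called higher and 17 lower, with a median log2 fold change of 1.68. Of 1026 features up to that length, 185 were higher and 246 lower, with a median of -0.28. Values for 28S (1.66) and 18S (2.41) thus stood near and above the median of the long features.

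Among structured RNAs longer than the size class, the signal recognition particle RNAs also rose, with log2 fold changes of 3.22 for RN7SL1, 3.05 for RN7SL2 and 3.97 for RN7SL3 (edgeR adjusted p = 0.000467, 0.000594 and 0.000163). These 3 entries are near-identical copies whose reads the counting could split. RN7SK, the RNA that holds the elongation factor P-TEFb inactive in the nucleus, fell by 5.39 on the log2 scale (adjusted p = 6.17e-05). It held 142 to 332 CPM in exosomes and 13741, 550 and 16196 CPM in cells 1 to 3. The size of this fall thus came mostly from cells 1 and 3. TERC, the telomerase RNA, had 0.21 (adjusted p = 0.787).

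Ratios between rRNAs within a library need no scaling factor. For each 5.8S count, exosomes 1 to 5 held 2.97, 2.37, 1.56, 2.58 and 2.84 counts of 28S and cells 1 to 3 held 0.827, 0.318 and 1.24. Thus 28S exceeded 5.8S in every exosome library and in 1 cell library, cell 3, and the groups did not overlap. The ratio of 28S to 5.8S was 3.49-fold higher in exosomes (exact permutation p = 0.0357, two-sided, adjusted p = 0.0595). Mean log2 ratios were 1.27 ± 0.37 (SD, n = 5) in exosomes and -0.54 ± 1.0 (SD, n = 3) in cells. The size leaned on cell 2, without which the mean log2 difference was 1.25. It was 2.23 without cell 3, and these were the lowest and highest values when single libraries were left out.

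The ratio of 18S to 5.8S also separated the groups. It was 0.316, 0.756, 0.458, 0.190 and 0.159 in exosomes 1 to 5 and 0.050, 0.0343 and 0.0655 in cells 1 to 3. The lowest exosome value, in exosome 5, lay above the highest cell value, in cell 3. The mean difference was 2.72 on the log2 scale, or 6.61-fold (exact permutation p = 0.0357, two-sided, adjusted p = 0.0595).

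The balance between the long rRNAs did not separate the groups. The ratio of 28S to 18S counts was 9.41, 3.13, 3.40, 13.6 and 17.9 in exosomes 1 to 5 and 16.5, 9.26 and 19.0 in cells 1 to 3. Exosomes 2 and 3 lay below all other libraries, and the other exosome libraries lay within the range of the cells. The mean log2 difference was -0.92 (exact permutation p = 0.286, two-sided, adjusted p = 0.357). For RNA5S9 to 5.8S it was 0.09 (exact permutation p = 0.893, adjusted p = 0.893).

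**Figure D2:**
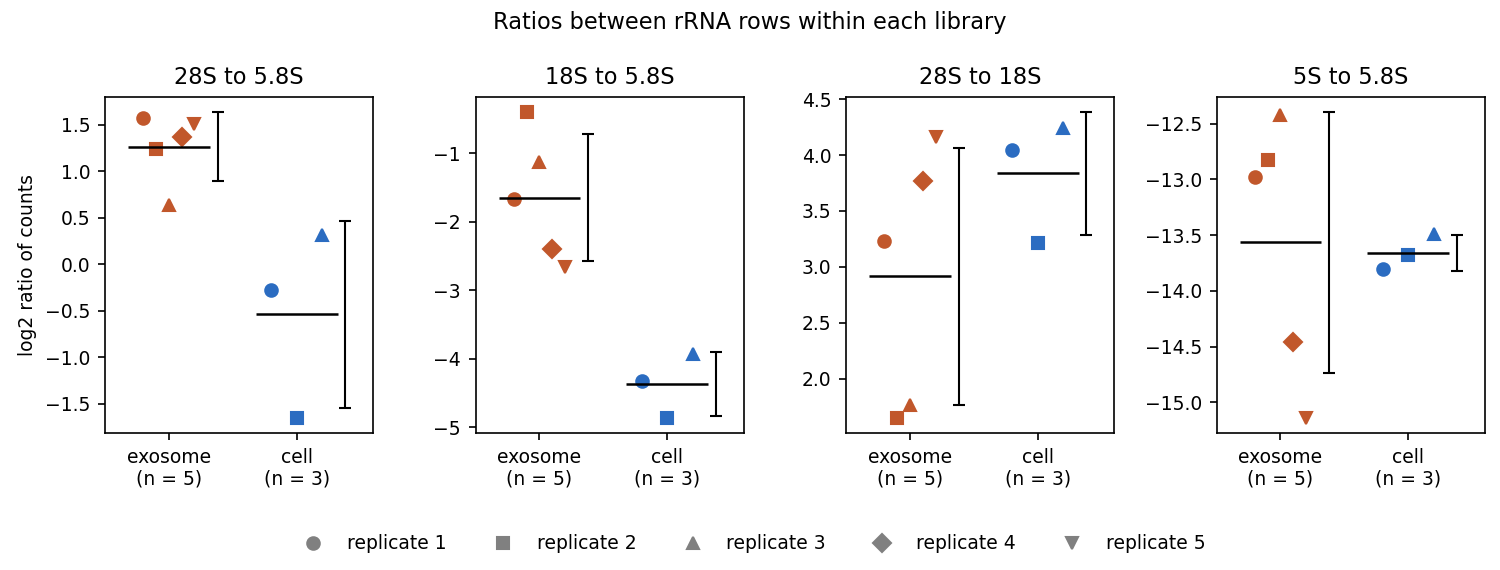
Log2 ratio of counts between pairs of rRNA entries (y axis, with a scale of its own in each panel) in each library. Lines are group means and bars the SD; the groups separate for 28S to 5.8S and 18S to 5.8S and overlap for 28S to 18S and 5S to 5.8S, where exosomes 2 and 3 have the lowest 28S to 18S ratios.

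As parts of the rRNA reads alone, 28S made up 69.3%, 57.4%, 51.7%, 68.4% and 71.0% in exosomes 1 to 5 and 44.1%, 23.5% and 53.8% in cells 1 to 3. Here cell 3 exceeded exosome 3, so the groups overlapped. The 5.8S part was 23.3%, 24.3%, 33.1%, 26.5% and 25.0% in exosomes against 53.3%, 73.9% and 43.3% in cells, without overlap. The 18S part was 7.37%, 18.3%, 15.2%, 5.04% and 3.96% in exosomes and between 2.54% and 2.84% in cells. Cell rRNA reads were thus mostly 5.8S in cells 1 and 2 and mostly 28S in cell 3, while those of every exosome library were mostly 28S.

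**Figure D3:**
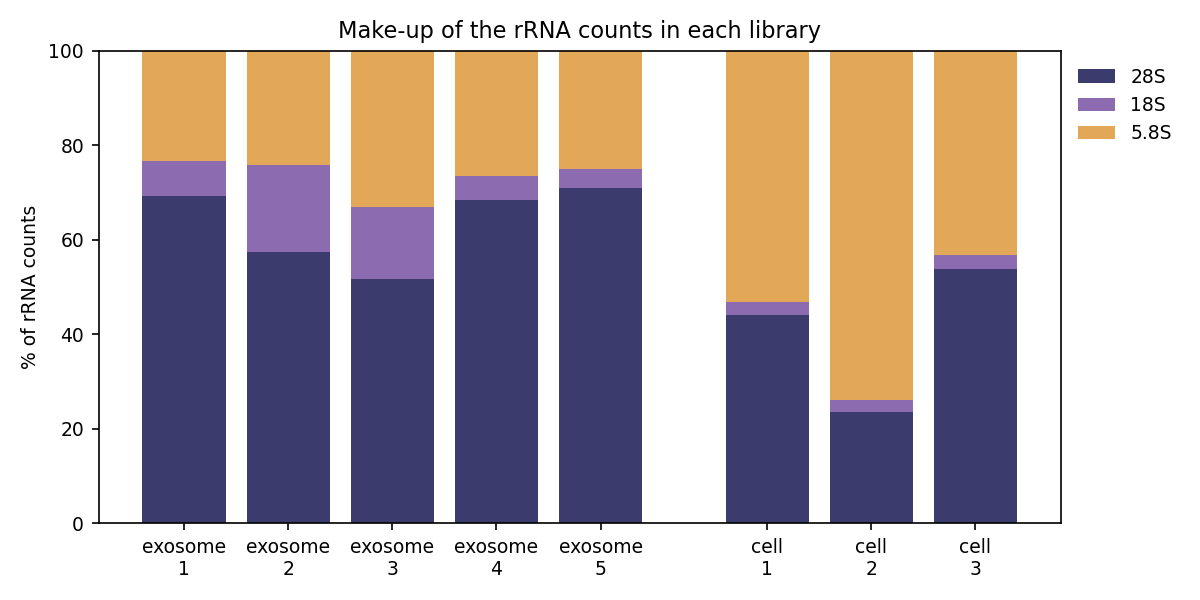
Make-up of the rRNA counts in each library as stacked bars (y axis, percent of counts on the 4 rRNA entries). RNA5S9 is too small a part to be drawn; the 5.8S part is 23.3% to 33.1% in exosomes and 43.3% to 73.9% in cells.

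Per length, the order was the same in all 8 libraries. On the scale of CPM per kilobase, with 1 copy taken as the length of 5.8S, mean levels in exosomes and cells were 860024 and 1007430 for 5.8S, 63635 and 21608 for 28S, 25421 and 3879 for 18S, and 111 and 98.9 for RNA5S9. With 1 copy as its length, the level of 5.8S per nucleotide was 11.2 to 21.2 times that of 28S in exosomes and 26.7 to 104 times in cells. It was 16.2 to 77.1 times that of 18S in exosomes and 186 to 356 times in cells. Although 28S had most reads in exosomes by count, 5.8S thus had the highest level per length in every library. Over the bases of both 5.8S blocks its mean levels were 430012 and 503716 CPM per kilobase, still the highest, and its ratios to 28S and 18S are smaller in the same proportion. Of the 2 rRNAs short enough to pass the size selection whole, 5.8S had the highest and RNA5S9 the lowest level per length. Between 28S and 18S the ratio per nucleotide was 1.15 to 6.61 in exosomes and 3.42 to 6.99 in cells.

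**Figure D4:**
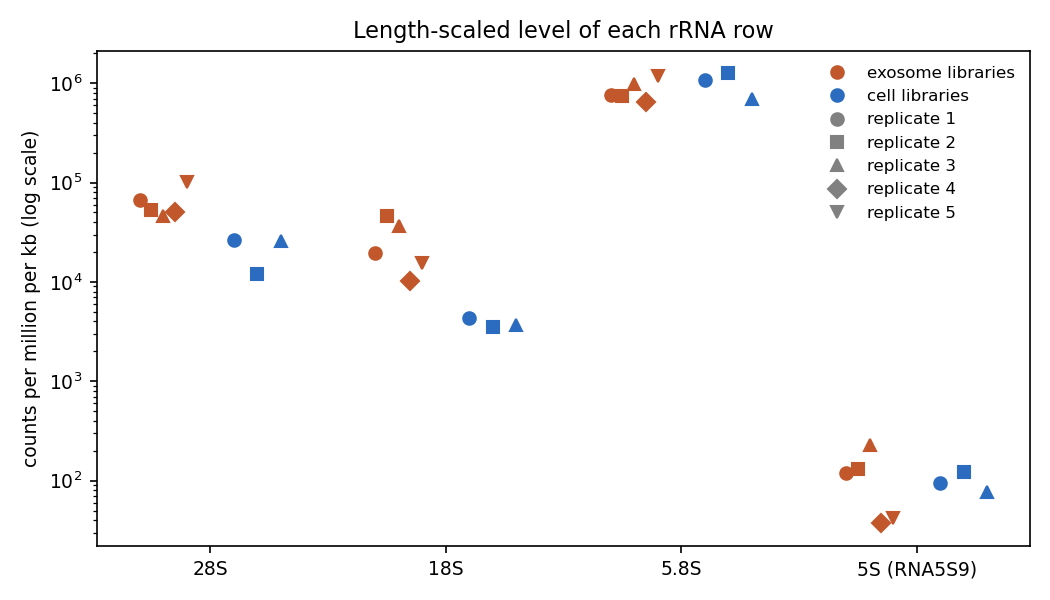
Level of each rRNA entry per length (y axis, CPM per kilobase, log scale) in each library, with colours for exosome and cell libraries and marker shapes for replicate numbers. The order from 5.8S through 28S and 18S to RNA5S9 holds in each library, and exosome points lie above cell points for 28S and 18S.

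The exosome libraries were not uniform in rRNA make-up. Exosomes 2 and 3 had the highest 18S shares, 8.53% and 6.83%, and the lowest ratios of 28S to 18S. They also had the highest shares of mitochondrial rRNA, which comes from the mitochondrial genome and its own ribosome. The 2 mitochondrial rRNAs together held 0.455%, 2.60%, 2.57%, 0.840% and 0.567% of counts in exosomes 1 to 5 and 0.454%, 0.0666% and 0.503% in cells 1 to 3. Exosome 1 lay within the range of the cells, so these shares overlapped.

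Of these, MT-RNR2 of the large mitochondrial subunit was 3.97-fold higher in exosomes (log2 1.99, SE 0.69, edgeR adjusted p = 0.0283), although its groups overlapped. Leaving out exosome 2 (log2 1.70, adjusted p = 0.0574), cell 1 (1.86, 0.0849) or cell 2 (1.56, 0.113) ended that call. MT-RNR1, the small mitochondrial rRNA, had a log2 fold change of 1.82 (SE 0.73, adjusted p = 0.0551) and was not called, though it was in 10 alternatives, DESeq2 among them (1.92, adjusted p = 0.0166). The ratio of MT-RNR2 to MT-RNR1 counts stayed between 1.07 and 1.73 over the 8 libraries, whereas that of 28S to 18S ran from 3.13 to 19.0.

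Over the 8 libraries, log2 CPM of 28S and 18S had a Pearson r of 0.684, 28S and 5.8S one of 0.341, and 18S and 5.8S one of 0.088. That of 18S with MT-RNR2 was 0.749. These values describe libraries that fall into exosome and cell groups and share depth and scaling, and they carry no test. The features most like 28S were MIR501 (r = 0.939), LINC00543 (0.907) and FAM66E (0.900). Those most like 18S were MIR127 (0.921), MIR3656 (0.910) and a 72-nt feature that the files name 23752 (0.905). For 5.8S they were SCARNA3 (0.891), MIR3127 (0.889) and MIR4661 (0.888), and for RNA5S9 SNORD14C (0.954), SNORD68 (0.840) and the spliceosomal RNU4-1 (0.837).

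Several snoRNAs that act on the rRNA precursor fell in exosomes. Of 16 processing RNAs listed, 12 had an entry and were tested, and 5 of these fell in exosomes while 7 were not called. Their median log2 fold change was -0.95, against -0.09 over all features, of which 22.3% fell. SNORD118 (U8), which is needed for 5.8S and 28S maturation, had 55.9, 51.2, 58.9, 31.2 and 18.9 CPM in exosomes 1 to 5 and 162, 76.3 and 220 CPM in cells 1 to 3. The groups did not overlap, also by TMM-scaled CPM, where 20.1% of all features had every exosome library below every cell library. SNORD118 fell by 2.10 on the log2 scale (SE 0.49, edgeR adjusted p = 0.00281).

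SNORD13 (U13), which acts on the 18S part of the precursor, fell by 1.84 on the log2 scale (SE 0.60, edgeR adjusted p = 0.0215). Its groups overlapped, with 19.3 to 140 CPM in exosomes and 102, 77.9 and 379 CPM in cells 1 to 3. The call rested on cell 3, without which the log2 fold change was -0.49 (adjusted p = 0.550). In all, 6 alternatives ended the call, among them those without exosome 1 (-1.69, 0.0645) or exosome 4 (-1.36, 0.105) and total-count scaling (-1.43, 0.115).

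The U14 family, which both guides methylation of 18S and is needed for its release, was mixed. SNORD14B, SNORD14D and SNORD14E fell, with log2 fold changes of -3.38, -3.17 and -3.13 (edgeR adjusted p = 0.00150, 0.00288 and 0.000912). By library totals, SNORD14B held 2.65 to 14.7 CPM in exosomes and 64.3, 5.86 and 115 CPM in cells 1 to 3, with overlap. Without cell 3 it had -1.99 (edgeR adjusted p = 0.0377). SNORD14D was low, with 3 to 22 counts in exosomes and 131 to 227 in cells. SNORD14A had -0.77 and SNORD14C -0.28, neither called, and the sign of SNORD14C turned with total-count (0.09) or upper-quartile (0.04) scaling. No difference between these copies was tested.

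The U3 genes, whose RNA pairs with the precursor at the first cleavages, were not called. SNORD3A had a log2 fold change of 0.20, SNORD3C 0.32, and SNORD3B-1 and SNORD3B-2 -0.95 each. SNORD3B-1 and SNORD3B-2 had nearly equal counts in every library, and the counting could split reads among the U3 copies. SNORA73B, an H/ACA RNA of 18S processing, had -0.93 and was not called.

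Most listed guides of rRNA 2′-O-methylation were lower in exosomes, for all 3 nucleolar rRNAs. Of 28 guides of 18S listed, 23 were tested. Of these, 22 fell and SNORD54 was not called (log2 -1.07), with a list median of -2.51. Of all features 22.3% fell, and the median was -0.09. The list leaves out the U14 copies, placed among the processing RNAs, of which SNORD14B, SNORD14D and SNORD14E fell and SNORD14A and SNORD14C were not called. No list of snoRNAs with other targets was compared. Without cell 3, 14 guides of 18S fell. SNORD43 and SNORD59A, the most abundant by mean CPM over all 8 libraries, fell, with log2 fold changes of -5.09 and -4.44 (edgeR adjusted p = 2.63e-05 and 0.000272). That choice leans on the cell libraries. The size for SNORD59A leaned on cell 2, without which it was -2.88 (edgeR adjusted p = 0.00195). SNORD82 and SNORD20, with 415.8 and 349.6 TMM-scaled CPM in exosomes against 317.9 for SNORD43, had log2 fold changes of -2.51 and -2.45 (adjusted p = 0.00408 and 0.00281), and were named after their values were seen.

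Of 34 tested guides of 28S, 30 fell, 4 were not called (SNORD41, SNORD35A, SNORD53 and SNORD91B, named after their values were seen), and the median was -3.41, beside the same 22.3% and -0.09 over all features. SNORD63 and SNORD18A, the most abundant over all 8 libraries and also in exosomes, fell, with log2 fold changes of -4.91 and -4.03 (edgeR adjusted p = 3.09e-05 and 0.000272). Without cell 2, SNORD18A had -3.05 (adjusted p = 0.00170). For 5.8S, both tested guides fell. SNORD96A held 3.95 to 31.2 CPM in exosomes and 314 to 613 CPM in cells and fell by 5.12 on the log2 scale (adjusted p = 2.65e-05). SNORD71 held 28.6 to 136 CPM in exosomes and 221 to 1512 CPM in cells and fell by 4.46 (adjusted p = 0.000265). Without cell 2, the highest of these, SNORD71 had -3.26 (edgeR adjusted p = 0.00170). The rRNAs these guides act on had log2 fold changes of 2.41 (18S), 1.66 (28S) and -0.43 (5.8S).

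**Figure D5:**
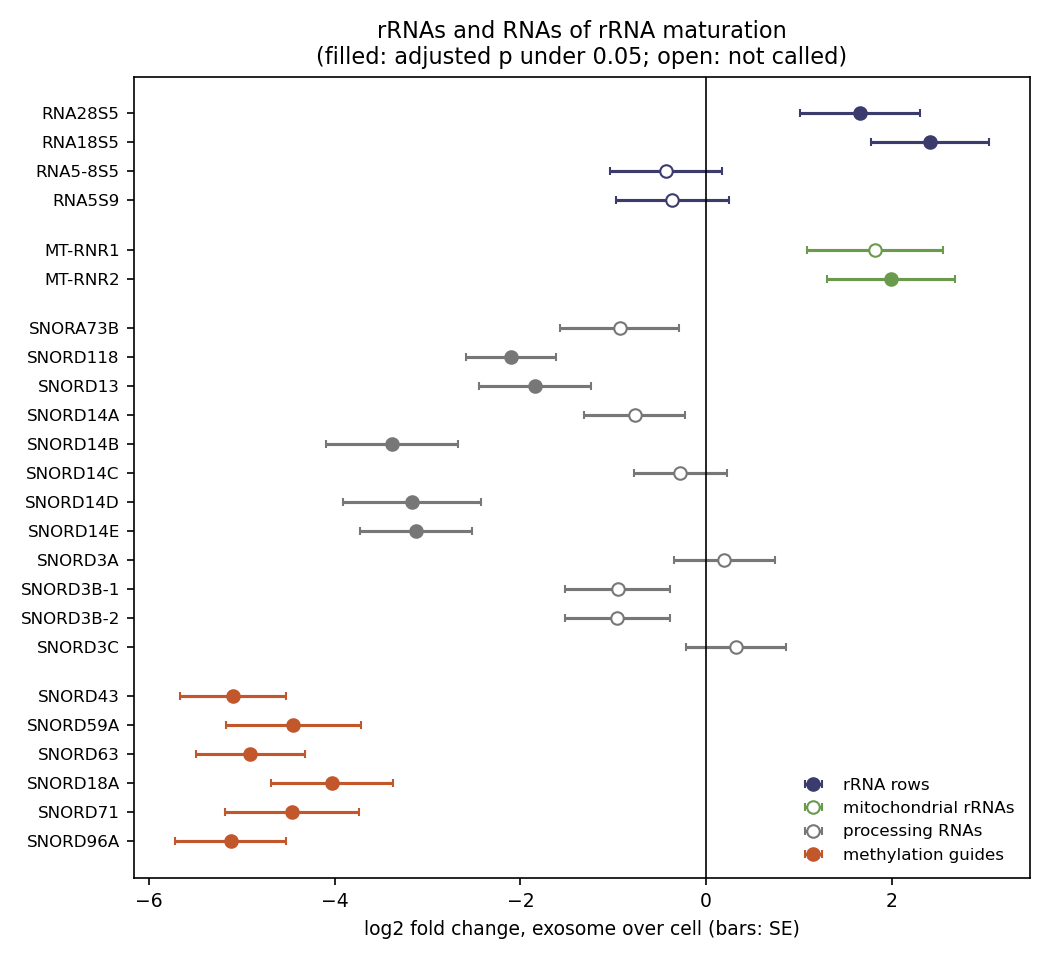
Log2 fold change of exosome over cell libraries (x axis, bars are SE) for the 4 rRNA entries, the mitochondrial rRNAs, the measured processing RNAs and the methylation guides with the highest mean CPM over all 8 libraries, where cell levels weigh most. Filled points passed an adjusted p of 0.05: 28S, 18S and MT-RNR2 lie to the right of 0, and 5 processing RNAs and the 6 guides to the left.

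MicroRNAs of other tissues were measured beside these results as markers of RNA from serum or other cells. Of 11 listed, 8 had an entry, and their sum was 106 to 381 CPM in exosomes and 50.1 to 93.5 CPM in cells, without overlap. Of the 7 tested, 4 were higher in exosomes, against 20.5% of all features, and none of the 8 was at 0 in every library. The other 3 were not called, and MIR9-1 among them leaned towards the cells (log2 -1.28, edgeR adjusted p = 0.108). MIR9-1 held 1.90 to 38.9 CPM in exosomes and 64.8, 19.4 and 21.2 CPM in cells 1 to 3, so it made up much of the sum in cell 1. The sum of the 8 was highest in exosome 3, with MIR122, the liver miRNA, at 160 CPM. The part of such RNA in the rRNA counts was not tested.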

How the data were processed

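The values are unnormalized read counts for each feature as deposited, in tables with featureCounts column headers. Named in the submitters' processing notes are the trimmer cutadapt 1.1, the aligner STAR, the counter featureCounts, the test DESeq2 1.8.2 and the build GRCh37. Settings for strand and for reads with several matches: not given in the sources used here. Members and lists were chosen with earlier results of these data known.

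Counts were tested with edgeR 4.0.16 in R 4.3.3 (glmQLFit with the robust option, glmQLFTest, TMM factors, filterByExpr with a minimum of 10 counts, Benjamini-Hochberg over all 1178 features tested) and called at an adjusted p under 0.05. The SE is the log2 fold change over the square root of F. On simulated counts of 1139 features, with 193 changed by log2 3 and the same dispersion for all, 93.8% were recovered and 4.74% of calls were false. These changes were larger than those of 28S (1.66) and 18S (2.41), so the rates do not describe the rRNA calls. Ratios and shares were compared with two-sided exact permutation tests over 56 splits (scipy 1.17.1). Correlations used log2 CPM with a prior count of 2. Alternatives were DESeq2 1.42.0, limma-voom 3.58.1, other scalings, no low-count filter, near-identical features counted once, a replicate block and leaving out libraries. Features were near-identical where their counts differed by at most 2% or 5 reads in all libraries, with a mean of at least 50 counts (84 features, none of them an rRNA). Named genes were the 4 rRNAs, the mitochondrial rRNAs, all measured processing RNAs, the 2 most abundant guides of each list and the 3 features most correlated with each rRNA. The 7SL, 7SK and telomerase RNAs and the 2 spacer entries were added outside this rule. The 5.8S sequence is that of GENCODE release 29, and no sequence of the other rRNAs is reported here.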

Additional observations from a re-analysis of the deposited data

Results flagged for a closer look

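In exosome 4, MIR3648 stood at 2.91 CPM (68 counts), apart from the other exosome libraries at 0.476 to 0.802 CPM. It was the only one of 15 quantities examined for a library far from the other 4 of its group, and chance marks about 1 in 20 such groups.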

How the results depend on the processing

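RNA18S5 kept direction and call in each alternative run (log2 2.13 to 3.01 when single libraries were left out). RNA28S5 kept its direction but lost its call with limma-voom (1.31), without exosome 5 and cell 2 together (0.81) and without exosome 1 or 5 or any of the cell libraries in turn (0.91 to 2.22 over all 8 libraries left out singly). The number of rRNAs called higher was 1 wherever that call was lost (1 to 2 when single libraries were left out). Several values that were not called changed sign. RNA5-8S5 ran from -1.04 to 0.17 when single libraries were left out, and the log2 ratio of 5S to 5.8S from -0.19 to 0.49. RNA5S9 was 0.17 with total-count scaling, 0.022 with scaling from features other than the 4 rRNAs, 0.38 without exosome 5 and cell 2, and -0.72 to 0.27 when single libraries were left out. In the same order, SNORD14C was 0.093, 0.087, 0.095 and -0.45 to 0.25, with 0.040 for upper-quartile scaling and 0.028 without the low-count filter. SNORD3A and SNORD3C were -0.19 and -0.015 without exosome 5 and cell 2. Leaving out single libraries gave -0.23 to 1.11 for SNORD3A, -0.024 to 0.95 for SNORD3C, -1.36 to 0.32 for SNORD3B-1 and for SNORD3B-2, -1.16 to 0.13 for SNORD14A, -0.91 to 0.24 for MIR3648, and 14 to 22 for the number of 18S guides called lower. The cause was not tested. Over all features, the median fold change (log2) was 0.19 with total-count, 0.25 with upper-quartile and 0.28 with non-rRNA scaling, against -0.09. Calls over all features were 241 higher and 263 lower, and 293 and 222 with non-rRNA scaling. The fit without the robust option and the removal of exosome 5 and cell 2 were chosen after seeing the data.

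Replicate numbers were shared between groups, but same-numbered libraries did not deviate together (r of 0.030, -0.054 and 0.169 for numbers 1 to 3), so the numbers were not taken as pairs. Which exosome samples match which cells is not known, and 3 correlations do not settle it. With the replicate block over replicates 1 to 3, RNA28S5 was 1.03 (edgeR adjusted p = 0.142), RNA5S9 0.26, SNORD14C 0.12, 1 rRNA was called higher and 14 guides of 18S lower. The same 6 libraries without a block gave 1.04, 0.063, 0.032, 1 and 14. SNORD13 lost its call in both (-1.05, adjusted p = 0.228, and -1.38, 0.120). Mean differences within numbers were 0.91 for the log2 ratio of 5S to 5.8S, against 0.09, and -1.62 for 28S to 18S, against -0.92. All 3 numbers had the same sign in each, and the exact sign-flip p was 0.25, the smallest that 3 pairs allow. Calls over all features were 357 with the block and 399 without.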

Other observations

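MIR3648 and MIR3687 are miRNA entries whose sequences lie in the spacer ahead of 18S in the rRNA precursor, 978 and 726 nt before 18S by the RefSeq and GENCODE positions. The files count them at copies on chromosome 21, at 9825832 to 9826011 and 9826203 to 9826263 (GRCh37). They were looked up after the rRNA values had been seen. MIR3687 had 31, 40, 44, 20 and 23 counts in exosomes 1 to 5 and 460, 80 and 459 in cells 1 to 3. Every exosome library lay below every cell library by TMM-scaled CPM, as for 20.1% of all features, and it fell by 2.95 on the log2 scale (SE 0.60, edgeR adjusted p = 0.00118). MIR3648 had 13 to 68 counts in exosomes and 24 to 109 in cells, with a log2 fold change of -0.56 (adjusted p = 0.560). MIR3687 thus fell where 18S rose (log2 2.41).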
